A study of Mus musculus with 17 samples.

Results

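Transcripts of 9 lymphocyte marker genes were followed in bulk RNA-seq of mouse liver and liver tumors. The genes were taken by name: Cd3d, Cd3e, Cd3g, Cd8a, Lck and Il7r for T cells, Gzma for cytotoxic lymphocytes, and Cd79a and Cd79b for B cells. All 9 were present in both gene tables, among 19151 genes in the high-fat diet table and 24233 genes in the Western diet table.

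The study set WT mice against mice lacking hepatic NgBR (N-LKO), in which albumin-Cre recombined a loxP-flanked NgBR (Nus1) allele whose exon 1 is floxed. Albumin-Cre acts in hepatocytes and other cells that use the albumin promoter, so the lymphocytes measured here were not the cells targeted. The animals were male, on a C57BL6 background, and had standard chow for 8 weeks before 16 weeks of diet. Whether the WT mice carried Cre or loxP alleles is not given in the sources used here. The groups on the high-fat diet (HFD, mostly calories from fat) comprised 4 WT and 4 N-LKO livers. The groups on the Western diet (WD, high in fat and cholesterol) comprised 3 WT livers, 3 N-LKO livers and 3 tumors of N-LKO mice. No source ties a tumor to a sequenced liver.

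T cells recognize antigen through a receptor whose variable chains cannot signal by themselves. The CD3 gamma, delta and epsilon chains carry the signal into the cell, where the kinase Lck, held near the membrane by the coreceptors CD4 and CD8, starts the phosphorylation cascade. B cells use the same plan with other parts, since the membrane immunoglobulin signals through CD79a and CD79b. Liver holds resident and circulating lymphocytes in the sinusoids and portal tracts, far outnumbered in RNA mass by hepatocytes.

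The counts behind these markers were small. Under HFD, with 9096110 to 12215784 counts per library, the 9 genes had between 0 and 18 counts in any liver, 3 of the 72 values were 0, and all 8 livers together gave 398 counts. Under WD, with 15494731 to 20200618 counts per library, every library had at least 1 count of each gene and the 9 libraries together gave 1860. Nus1 matched the labels, at 82.4 to 96.0 CPM (counts scaled to library size) in WT HFD livers and 29.3 to 37.9 CPM in N-LKO HFD livers, and at 88.1 to 98.8 CPM in WT, 41.6 to 51.1 CPM in N-LKO and 28.9 to 43.9 CPM in tumor under WD. The 6 hepatocyte markers summed to 44400 to 54600 CPM in WT WD liver, 31800 to 40100 CPM in N-LKO WD liver and 35300 to 60200 CPM in tumor, so hepatocyte transcripts were abundant in tumor as well. WT WD replicate 2 had the lowest scaling factor, 0.806 against 0.941 to 1.15 in the other WD libraries. The HFD and WD libraries came in separate tables, so levels were compared only within a diet.

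The 3 CD3 chain genes lie side by side on mouse chromosome 9 (GRCm38). Cd3g (chr9:44969572-44980431, minus strand) and Cd3d (chr9:44981786-44987339, plus strand) start 1355 bases apart and are transcribed away from each other. Cd3e (chr9:44998740-45009627, minus strand) follows, and the 3 genes together span 40056 bases. Il7r lies elsewhere, at chr15:9505788-9530176 on the minus strand. The 250 bases before the RefSeq start are shown for the CD3 genes, because these neighbors make subunits of the same complex, and for Il7r, because it had the most counts of the 9 markers under WD. Capitals mark matches on either strand to TGTGGT (the core of sites bound by RUNX factors), AGGAAG (a form of ETS site) and CANNTG (the E-box), and no matches overlap in the 4 windows. RefSeq (GRCm38.p6) held windows for 8 of the 9 members. Exons of Cd3e overlap an antisense gene, Gm48719, and since use of strand in the counting is not stated, reads of the pair cannot be told apart.
Cd3g, chr9:44980432-44980681, minus strand: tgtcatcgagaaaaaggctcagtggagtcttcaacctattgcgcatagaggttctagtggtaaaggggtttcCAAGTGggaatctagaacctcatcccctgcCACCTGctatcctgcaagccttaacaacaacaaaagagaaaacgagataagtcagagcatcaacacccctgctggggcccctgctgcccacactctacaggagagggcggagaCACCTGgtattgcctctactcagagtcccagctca
Cd3d, chr9:44981536-44981785, plus strand: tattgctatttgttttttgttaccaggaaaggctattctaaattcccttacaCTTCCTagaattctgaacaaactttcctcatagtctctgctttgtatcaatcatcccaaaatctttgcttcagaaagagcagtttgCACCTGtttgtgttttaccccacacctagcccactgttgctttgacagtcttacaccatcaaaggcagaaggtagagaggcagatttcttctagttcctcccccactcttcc
Cd3e, chr9:45009612-45009861, minus strand: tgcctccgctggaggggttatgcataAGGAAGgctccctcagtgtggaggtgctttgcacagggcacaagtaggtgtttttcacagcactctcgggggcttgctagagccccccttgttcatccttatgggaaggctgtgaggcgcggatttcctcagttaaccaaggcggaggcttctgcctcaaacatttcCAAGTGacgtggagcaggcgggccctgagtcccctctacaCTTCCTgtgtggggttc
Il7r, chr15:9529877-9530126, minus strand: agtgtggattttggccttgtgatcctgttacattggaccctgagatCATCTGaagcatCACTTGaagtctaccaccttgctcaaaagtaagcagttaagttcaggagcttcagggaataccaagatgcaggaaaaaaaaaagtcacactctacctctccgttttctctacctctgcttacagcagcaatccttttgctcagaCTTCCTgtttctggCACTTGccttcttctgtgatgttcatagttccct

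The Cd3g window held 3 E-box matches and no match to the other letters. The Cd3d window held 1 ETS match and 1 E-box match. The Cd3e window held 2 ETS matches and 1 E-box match, and the Il7r window held 1 ETS match and 3 E-box matches. Over the members with a window, 8 held an E-box match, 5 an ETS match and 2 (Lck and Gzma) a RUNX match. These letters are common: of 32851 windows of the same length, 66.2% held CANNTG, 29.5% held AGGAAG and 14% held TGTGGT. The Il7r window falls inside the gene as GENCODE draws it, because a noncoding transcript of Il7r starts further upstream.

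Under HFD, the markers were near the limit of detection and none of the 9 separated N-LKO from WT liver. Cd3d, the CD3 delta chain, had 0, 2, 2 and 0 counts in WT livers and 3, 5, 5 and 2 counts in N-LKO livers. Cd3e, the epsilon chain, had 3, 2, 3 and 4 counts in WT and 7, 6, 2 and 3 in N-LKO livers. Cd3g, the gamma chain, had 4, 7, 10 and 3 counts in WT and 6, 8, 5 and 3 in N-LKO livers. All 3 chains overlapped between genotypes, and the chain with the clearest shift, Cd3d, still had an N-LKO liver (0.160 CPM) below the higher WT livers (0.191 and 0.222 CPM). Summed, the 3 chains gave 1.04 ± 0.443 CPM in the WT group and 1.20 ± 0.395 CPM in the N-LKO group (mean ± SD, n = 4 each). In bulk tissue, fewer cells of a type and less RNA per cell cannot be told apart.

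Cd8a, the coreceptor chain of cytotoxic T cells, had 3, 3, 1 and 3 counts in WT HFD livers and 5, 6, 1 and 5 counts in N-LKO HFD livers. Lck had 3, 3, 6 and 2 counts in WT and 8, 8, 5 and 8 counts in N-LKO livers. Il7r, the receptor chain through which interleukin 7 keeps naive and memory T cells alive, had 5, 11, 9 and 5 counts in WT and 8, 9, 4 and 7 counts in N-LKO livers. For Lck, WT replicate 3 (0.666 CPM) was above every N-LKO liver (0.543 to 0.661 CPM) while the other WT livers were below all of them. Gzma, a granule protease of cytotoxic T and NK cells, had 5, 0, 1 and 5 counts in WT and 4, 3, 2 and 4 counts in N-LKO livers, at mean levels of 0.285 and 0.278 CPM.

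The B cell receptor subunits gave the most HFD counts. Cd79a had 8, 10, 8 and 3 counts in WT livers and 18, 17, 15 and 8 counts in N-LKO livers. Cd79b had 9, 3, 8 and 5 counts in WT and 8, 11, 7 and 13 counts in N-LKO livers. For Cd79a, 3 N-LKO livers (1.4 to 1.63 CPM) lay above all 4 WT livers (0.305 to 0.954 CPM) and the remaining N-LKO liver, replicate 4, lay among them at 0.639 CPM.

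No member passed the low-count filter of the HFD fit, so no edgeR p-value was assigned to any of them, while 4.84% of the 13460 genes tested were called. Each member was instead tested by a two-sided exact permutation test on CPM, which over 70 splits of 4 against 4 cannot go below p = 0.0286. The exact p was 0.114 for Cd3d and for Cd79a, 0.143 for Lck, and 0.343 to 1.00 for the other 6 genes. Thus 0 of 9 members passed 0.05, beside 12.0% of all genes in the table, and 0 of 9 lay wholly above WT, beside 6.12% of all genes. The mean CPM was higher in N-LKO liver for 6 of the 9, beside 49.7% of all genes. The count of members under 0.05 was 1 (Lck) without WT replicate 3, 1 (Cd8a) without N-LKO replicate 3 and 2 (Cd3d and Cd79a) without N-LKO replicate 4.

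Set against counting error alone, the ratio of N-LKO to WT was 3.18 for Cd3d (95% interval 1.01 to 13.1, from 15 against 4 counts) and 1.69 for Cd79a (1.07 to 2.74, from 58 against 29 counts). It was 1.75 for Lck (0.898 to 3.59) and 0.790 for Il7r (0.455 to 1.37). These intervals leave out differences between animals. Fitted without the filter in edgeR, the 9 members had a median log2 fold change of 0.40 (range -0.34 to 1.60, lowest adjusted p = 0.350), beside a median of 0.01 over all 19151 genes.

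**Figure D1:**
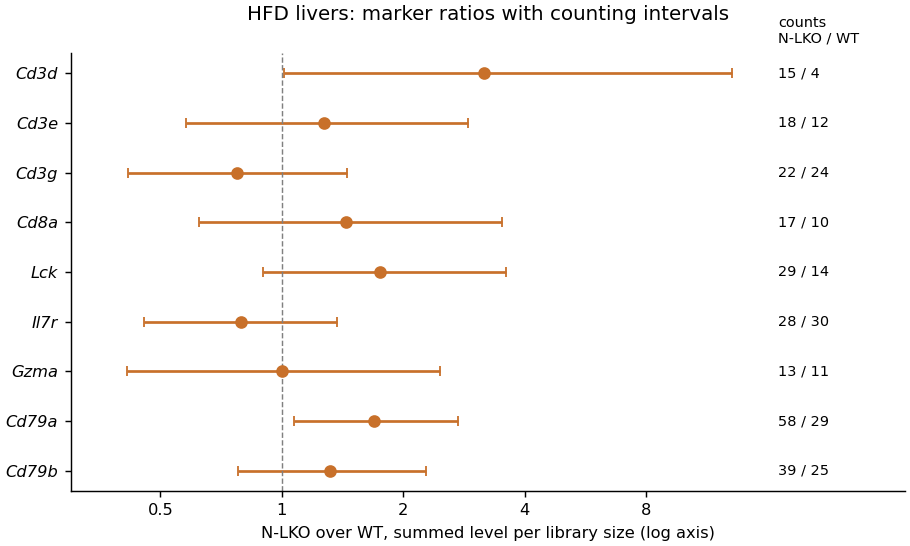
N-LKO over WT ratio of each marker in HFD livers (x axis, log scale), from counts summed over 4 livers per genotype and divided by library size, with bars for the 95% counting interval and the summed counts at the right. Intervals of 7 markers include 1, and those of Cd3d and Cd79a begin just above it.

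Under WD, T cell markers were higher in N-LKO than in WT liver for Il7r and Cd3g, with no overlap between the 3 livers of each genotype, but no member passed the threshold. Il7r had 21, 4 and 38 counts in WT livers (1.44, 0.271 and 2.26 CPM) and 90, 87 and 66 counts in N-LKO livers (4.40, 4.12 and 3.51 CPM). Cd3g had 4, 5 and 7 counts in WT livers (0.274, 0.339 and 0.417 CPM) and 23, 27 and 12 counts in N-LKO livers (1.12, 1.28 and 0.637 CPM). Every N-LKO liver lay above every WT liver for both genes. The fitted log2 fold change was 1.58 ± 0.51 (SE) for Il7r and 1.54 ± 0.45 for Cd3g, each with an edgeR quasi-likelihood p adjusted over all genes of 0.353. Before adjustment their p-values were 0.0108 and 0.0066.

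The other T cell markers overlapped between WD genotypes. Cd3e had 6, 11 and 10 counts in WT and 20, 33 and 13 counts in N-LKO livers, and its log2 fold change was 0.88 (95% interval -0.04 to 1.80, edgeR adjusted p = 0.419). Cd3d had 6, 1 and 6 counts in WT and 7, 7 and 13 counts in N-LKO livers. Cd8a had 13, 8 and 16 counts in WT and 17, 18 and 25 counts in N-LKO livers, with a log2 fold change of 0.32 (-0.66 to 1.31). For all of these genes at least 1 N-LKO liver lay within or below the WT range in CPM. Lck had 16, 18 and 15 counts in WT and 15, 30 and 27 counts in N-LKO livers, with a log2 fold change of 0.16 (-0.70 to 1.03), so its 2 lowest libraries came from different genotypes.

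Gzma, which passed no filter, had 6, 4 and 9 counts in WT and 18, 12 and 3 counts in N-LKO livers under WD, the N-LKO group holding both the highest and the lowest value. Cd79a had 7, 5 and 11 counts in WT and 11, 17 and 20 counts in N-LKO livers, and Cd79b had 10, 3 and 10 counts in WT and 13, 23 and 32 counts in N-LKO livers. Their log2 fold changes were 0.69 (-0.27 to 1.64) and 1.19 (-0.06 to 2.43), with edgeR adjusted p-values of 0.511 and 0.420. In N-LKO replicate 1 both B cell genes were at WT levels, and in replicates 2 and 3 both were above all WT livers.

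Of the 7 members tested between WD genotypes, 0 were called, beside 0.0% of 17829 genes. At an unadjusted edgeR p under 0.05, 2 members were higher, beside 7.10% of all genes in that direction. DESeq2 called 87 genes and limma-voom 0 in this comparison, and neither called a member. Groups did not overlap, with N-LKO higher, for 2 of 9 members, beside 13.0% of all genes. The mean CPM was higher in N-LKO than in WT liver for 9 of 9 members, beside 54.1% of all genes. With no filter the 9 members had a median log2 fold change of 0.66 (range 0.13 to 1.55), beside 0.01 over all 24233 genes. Cd3g passed the filter through the N-LKO and tumor libraries alone, since none of the 3 WT livers reached the level required.

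Tumor had the highest group mean under WD for 8 of the 9 markers, all but Gzma. Il7r was at 8.08, 4.26 and 6.66 CPM in the 3 tumors, from 385 counts in all, and each tumor lay above each WT liver. Cd3g had 29, 32 and 14 counts (1.46, 1.42 and 0.729 CPM), again above each WT liver. Against WT liver both rose, Il7r by a log2 fold change of 2.23 ± 0.51 (4.71-fold, edgeR adjusted p = 0.0208) and Cd3g by 1.78 ± 0.45 (3.44-fold, edgeR adjusted p = 0.0285). Neither call held without WT WD replicate 1, where the adjusted p was 0.0605 for Il7r and 0.0863 for Cd3g, or in a fit of the 2 groups alone, at 0.0652 and 0.0634. The Cd3g call also failed without WT WD replicate 2 (0.0932), WT WD replicate 3 (0.0590) or tumor replicate 2 (0.0787). Because Cd3g entered this test through N-LKO liver and tumor alone, its call is a description.

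Cd3e had 31, 23 and 25 counts in tumor and Cd3d had 10, 16 and 8, and for both genes the lowest tumor exceeded the highest WT liver in CPM. The log2 fold change of Cd3e was 1.13 (95% interval 0.22 to 2.04, edgeR adjusted p = 0.0869). Cd3d, left out by the filter, had a tumor to WT ratio of 1.96 and an exact permutation p of 0.100, the smallest that 3 against 3 allows. For Cd3d the groups nearly met, at 0.416 CPM (8 counts) in tumor replicate 3 and 0.411 CPM (6 counts) in WT replicate 1. Thus each of the 3 CD3 chains was without overlap between tumor and WT liver, though barely for Cd3d, beside 16.5% of all genes with tumor higher. Of the 3, Cd3g alone passed the threshold, and it entered the test only through N-LKO liver and tumor, where it was high.

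Cd8a split the tumors, with 41 and 42 counts in replicates 1 and 2 and 15 counts in replicate 3 (2.06, 1.86 and 0.781 CPM, WT livers 0.542 to 0.953 CPM). Its log2 fold change against WT was 0.97 (0.01 to 1.93, edgeR adjusted p = 0.149). Lck had 39, 22 and 24 counts in tumor, and its log2 fold change was 0.38 (-0.47 to 1.24, adjusted p = 0.525). Tumor replicate 1 was the highest WD library for Lck, and replicate 2 lay among the WT livers. Gzma went the other way in level, with 6, 4 and 7 counts in tumor and a tumor to WT ratio of 0.669 (95% counting interval 0.327 to 1.36, exact permutation p = 0.30).

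The B cell genes had 14, 27 and 21 counts (Cd79a) and 13, 39 and 24 counts (Cd79b) in tumor. Cd79a had a log2 fold change against WT of 1.01 (0.07 to 1.94, edgeR adjusted p = 0.128) and its groups did not overlap. Cd79b had 1.28 (0.05 to 2.52, adjusted p = 0.140), and tumor replicate 1 at 0.653 CPM lay below the highest WT liver at 0.686 CPM. Cd79a and Cd79b moved together over the 9 WD libraries (r = 0.940 on log2 CPM). This correlation describes libraries that share group and depth, and no test was made of it.

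In this comparison 2 of 7 members tested were called higher, beside 8.08% of all genes called in that direction (14.9% in either). Of the 2, Cd3g entered the test only through N-LKO liver and tumor, where it was high, so this count is a description. At an unadjusted edgeR p under 0.05, 6 of the 7 were higher, beside 17.5% of all genes. The mean CPM was higher in tumor for 8 of 9 members, beside 56.6% of all genes. Groups did not overlap for 5 of 9 members (Cd3d, Cd3e, Cd3g, Il7r and Cd79a), beside 16.5% of all genes with tumor higher. Fitted without the filter, the 9 members had a median log2 fold change of 0.97 (range -0.58 to 2.19), beside 0.07 over all genes.

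Tumor and N-LKO liver were not separated by any member. The fitted log2 fold changes of the 7 members tested ran from 0.10 (Cd79b, 95% interval -1.01 to 1.21) to 0.66 (Il7r, -0.36 to 1.68), and the lowest edgeR adjusted p was 0.436, for Cd8a at 0.65. Of all genes, 0.499% were called here, with 0.437% higher in tumor, and 0 of 7 members had an unadjusted p under 0.05, beside 10.1% of all genes in the tumor-higher direction. DESeq2 called 1020 genes and limma-voom 18, and neither called a member. The mean CPM was higher in tumor for 8 of 9 members, beside 52.8% of all genes. Groups overlapped for 9 of 9 members, while 10.6% of all genes lay higher in tumor without overlap. The upper bounds of the 7 intervals lay between 1.05 and 1.68 on the log2 scale, so differences up to that size are within the error. Gzma had 33 counts in N-LKO liver and 17 in tumor, a ratio of 0.505 (95% counting interval 0.264 to 0.932), with overlapping libraries and an exact permutation p of 0.40. Tumor and N-LKO liver were each compared with the same WT livers, so these comparisons are not independent.

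**Figure D2:**
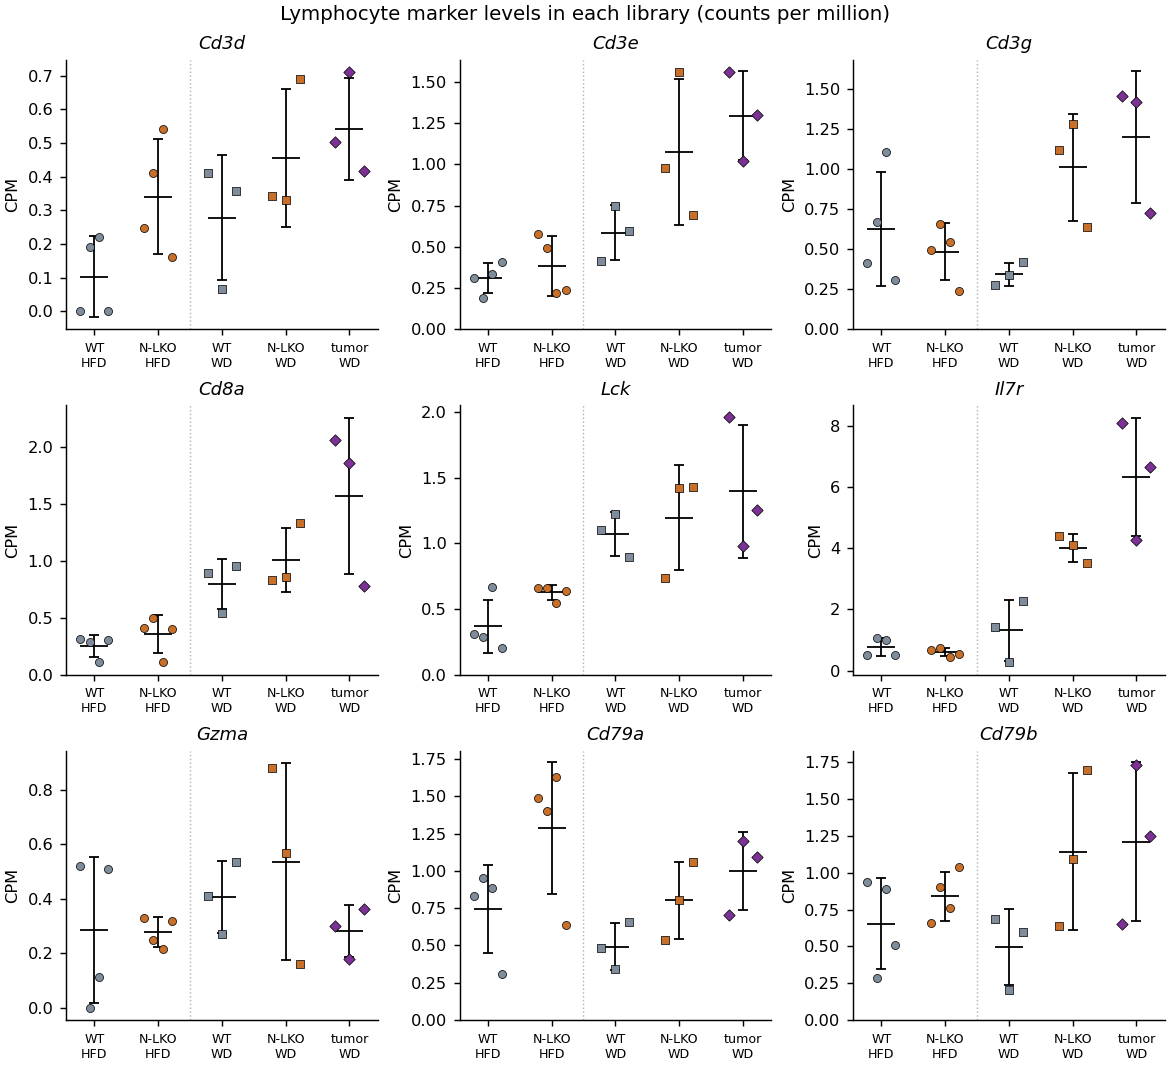
Level of each marker (y axis, CPM) in every library, by group, with the dotted line parting the HFD table from the WD table, and with horizontal ticks and bars for mean ± SD (n = 4 per HFD group, n = 3 per WD group). In the Il7r and Cd3g panels every N-LKO WD and tumor library sits above every WT WD liver, while the HFD groups overlap in all panels.

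**Figure D3:**
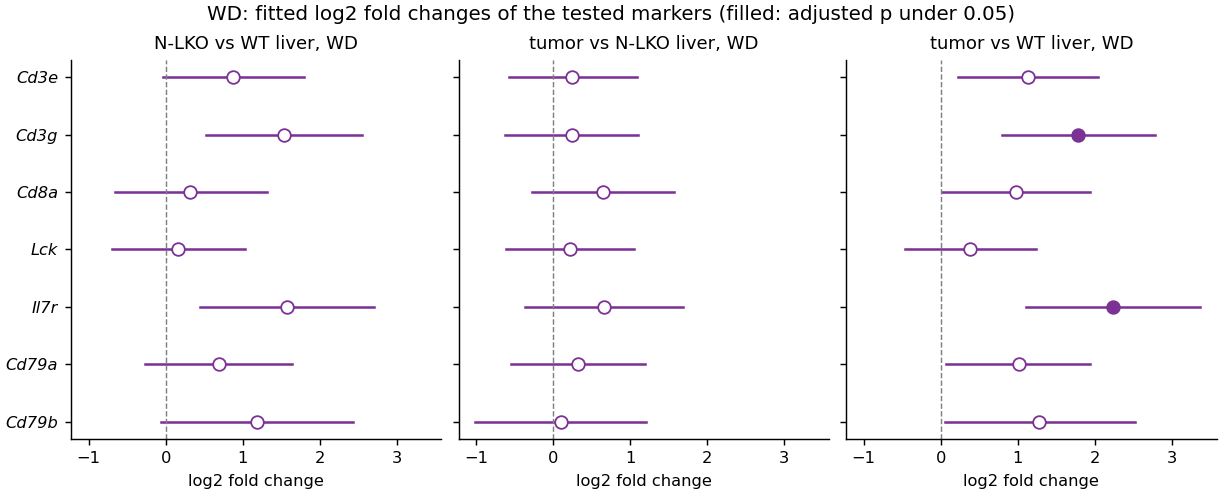
Fitted log2 fold changes (x axis) of the 7 markers tested under WD in the 3 comparisons, with bars for the 95% interval and filled points for an adjusted p under 0.05. Filled points appear for Cd3g and Il7r in tumor against WT liver and nowhere else.

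Summed by lineage, the 6 T cell markers stood at 4.40 ± 1.15 CPM in WT, 8.76 ± 0.713 CPM in N-LKO liver and 12.3 ± 2.89 CPM in tumor under WD (mean ± SD, n = 3 each). The libraries ran from 3.19 to 5.48 CPM, from 8.29 to 9.58 CPM and from 10.2 to 15.6 CPM, so the 3 groups did not overlap. Much of this came from Il7r. Without it the other 5 T cell genes ranged from 2.91 to 3.22 CPM in WT, from 4.01 to 5.45 CPM in N-LKO liver and from 4.48 to 7.53 CPM in tumor, and N-LKO liver and tumor overlapped. The 2 B cell genes ranged from 0.542 to 1.25 CPM, from 1.17 to 2.76 CPM and from 1.36 to 2.93 CPM, with overlap at each step. Under HFD the 6 T cell genes summed to 2.43 ± 0.792 CPM (WT) and 2.79 ± 0.569 CPM (N-LKO), and the 2 B cell genes to 1.4 ± 0.47 and 2.13 ± 0.316 CPM (n = 4 each). These sums were not tested.

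Of 10 pan-leukocyte genes tested under WD, 0 were called between genotypes, beside 0.0% of all genes. In tumor against WT liver 1 (Ptprc) was called higher, beside 8.08% of all genes. The 11 pan-leukocyte genes summed to 112 to 208 CPM in WT, 217 to 228 CPM in N-LKO liver and 178 to 303 CPM in tumor. Relative to these counts, the 6 T cell markers amounted to 2.56 ± 0.315% in WT, 3.94 ± 0.329% in N-LKO liver and 5.05 ± 1.49% in tumor (n = 3 each), with every N-LKO liver and every tumor above every WT liver. This order rested on Il7r, since without it the share was 1.89 ± 0.618%, 2.13 ± 0.296% and 2.38 ± 0.353% and the groups overlapped. The B cell pair amounted to 0.552 ± 0.0608%, 0.867 ± 0.335% and 0.922 ± 0.423%, with overlap. These are shares of counts, not of cells.

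**Figure D4:**
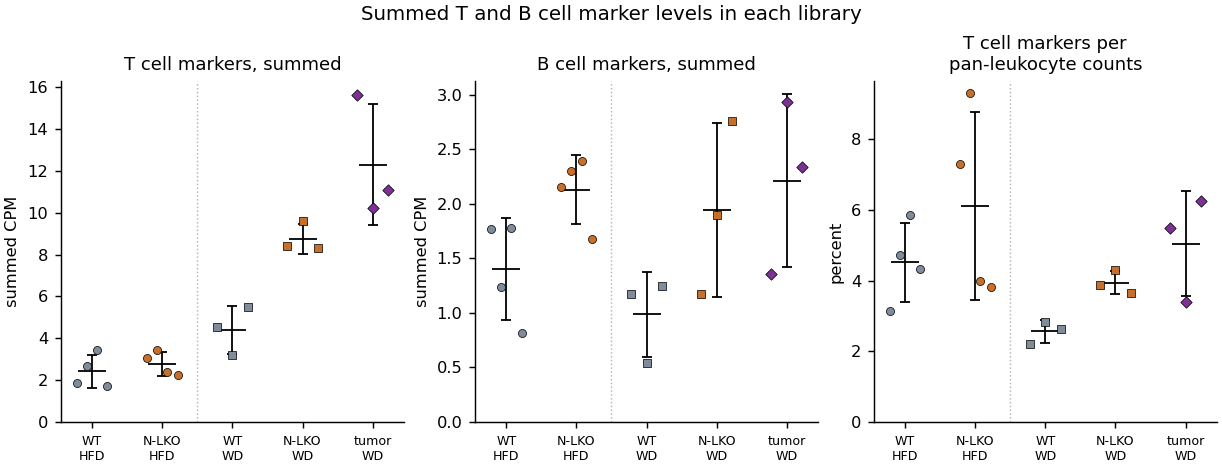
Summed CPM of the 6 T cell markers (left), summed CPM of the 2 B cell markers (middle) and T cell marker counts as a percent of pan-leukocyte counts (right) in every library, with mean ± SD. T cell sums step up from WT to N-LKO liver to tumor under WD, from 3.19 to 5.48, to 8.29 to 9.58, to 10.2 to 15.6 CPM, and overlap under HFD.

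Per kilobase of annotated exon, the order of the markers differed between groups. In tumor, Il7r led at 1.36 ± 0.414 CPM per kb, followed by Cd79b at 0.846 ± 0.377, Cd79a at 0.685 ± 0.179, Lck at 0.476 ± 0.173 and Cd8a at 0.431 ± 0.189 CPM per kb. Cd3g, Cd3e, Cd3d and Gzma followed between 0.368 and 0.279 CPM per kb. Neighbors in this order differed by less than their SDs, except that Il7r lay above Cd79b and Cd79a above Lck by more than either SD. In WT WD liver Gzma led at 0.404 ± 0.132 CPM per kb and Il7r, at 0.284 ± 0.215, stood below Lck, Cd79b and Cd79a. In N-LKO HFD livers Cd79a led at 0.884 ± 0.304 CPM per kb with Cd79b next at 0.588 ± 0.115, and Il7r stood at 0.128 ± 0.0284 CPM per kb.

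The 14 livers also allowed a test of the genotype effect under WD against that under HFD. Of the 6 members tested none was called, beside 1.62% of 15850 genes (0.587% with a larger effect under WD), and 2 had an unadjusted edgeR p under 0.05 in that direction, beside 9.18% of all genes. This fit applied its own filter over the 14 livers, and the libraries through which each member entered were not recorded. In the WD fit Cd3g, 1 of the 2, had reached the filter level in 3 N-LKO and 0 WT livers. The count of 2 is therefore kept as a description. The difference in effect (WD minus HFD) was 1.93 for Il7r (log2 scale, 95% interval 0.44 to 3.41, edgeR adjusted p = 0.141) and 1.91 for Cd3g (0.50 to 3.32, adjusted p = 0.129). Under HFD both genes had summed N-LKO to WT ratios below 1 (0.790 and 0.776), and under WD their ratios were 2.95 and 2.96. For Cd79a the difference was -0.07 (-1.51 to 1.36), and for Lck -0.60 (-1.78 to 0.57).

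Other T cell genes were read from a list of 27 receptor, signaling and identity genes. In tumor against WT liver 6 of the 23 tested rose, beside 8.08% of all genes, and 0 fell, among them Cd4, Cd6, Thy1, Bcl11b and Ptpn22. Cd4, the helper T cell coreceptor, which some myeloid cells also express, went from 0.910 ± 0.302 CPM in WT to 3.82 ± 1.95 CPM in tumor (log2 fold change 2.06 ± 0.46, edgeR adjusted p = 0.0201). Thy1, a T cell surface protein, rose by 1.29 ± 0.32 (adjusted p = 0.0275). Cd6, another, was fitted at 2.72 ± 0.65, but it entered the test through N-LKO liver and tumor alone, since its WT livers (0.0596 to 0.271 CPM) were below the level required, and it fell below the stricter filter that asks for 1 CPM on average. Bcl11b also entered through N-LKO liver and tumor alone, with WT livers at 0.238 to 0.274 CPM. The count of 6 is therefore a description. The count of 6 was 0 without tumor replicate 2 or with the 2 groups alone, 1 without WT WD replicate 2 or 3, and 2 without WT WD replicate 1. The median log2 fold change of the list, for the same reason a description, was 0.81, beside 0.04 over all genes tested.

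In N-LKO against WT liver under WD, 0 of the same 23 genes were called and 5 were higher at an unadjusted edgeR p under 0.05, beside 7.10% of all genes, with a median of 0.75 beside 0.01 over all genes. Because genes such as Cd6 and Bcl11b entered this test through N-LKO liver and tumor alone, the count of 5 and the median are descriptions. Cd4 was at 0.886 ± 0.268 CPM in N-LKO liver, near its WT level. In tumor against N-LKO liver 0 of 23 were called and the median was 0.09. Under HFD 5 of the 27 passed the filter and 0 were called. Themis, a regulator of T cell receptor signaling, gave 24.6 ± 8.73 CPM and Zap70, the kinase recruited to CD3 chains, 11.6 ± 2.51 CPM of a list sum of 47.9 to 63.1 CPM in N-LKO HFD livers, so the sum follows a few genes and was not used. Neither followed the CD3 chains, as Themis was at 32.3 ± 16.5, 54.5 ± 12.4 and 21.6 ± 16.1 CPM and Zap70 at 7.36 ± 2.39, 4.66 ± 0.746 and 5.36 ± 5.40 CPM in WT liver, N-LKO liver and tumor under WD. Themis had fractional counts in the WD table, so some of its reads were shared with other features. Trac, named after its values were seen, is the constant region of the T cell receptor alpha chain and went from 0.554 ± 0.258 CPM in WT WD liver to 0.852 ± 0.239 CPM in N-LKO liver and 0.975 ± 0.613 CPM in tumor, within the spread of the groups.

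Cytotoxic and NK cell genes did not pass in any comparison. Of 17 genes listed, 8 were tested under WD and 1 under HFD. Klrk1, an activating receptor of NK and cytotoxic T cells, was at 3.49 ± 1.08 CPM in WT, 3.92 ± 0.520 CPM in N-LKO liver and 3.36 ± 1.05 CPM in tumor. Ccl5, a chemokine made by activated T and NK cells, was at 1.48 ± 0.799, 2.50 ± 0.266 and 2.41 ± 1.32 CPM, with a log2 fold change in tumor against WT of 0.71 ± 0.50 (edgeR adjusted p = 0.354). Of 6 checkpoint genes 3 were tested under WD. In tumor against WT liver 2 of the 3 had a log2 fold change above 0 and 1 was called higher, beside 8.08% of all genes. Tox, the highest of the list in mean CPM, was not called, at 14.4 ± 1.80, 15.4 ± 4.67 and 5.85 ± 7.11 CPM in WT, N-LKO liver and tumor. The gene called was Havcr2, an inhibitory receptor found on T cells and on myeloid cells (1.09 ± 0.32, edgeR adjusted p = 0.0482). That call was lost with no filter, with the replicate block (adjusted p = 0.0557), with the 2 groups alone, and in 7 of the 9 fits that left out a library, all but those without WT WD replicate 1 (1.46) or tumor replicate 3 (1.28).

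The B cell and plasma cell list had 3 of 15 tested genes called higher in tumor than in WT liver, beside 8.08% of all genes. Jchain, the chain that joins secreted IgA and IgM, went from 5.56 ± 0.362 CPM to 21.3 ± 7.70 CPM (log2 fold change 1.94 ± 0.27, edgeR adjusted p = 0.00683). Igkc, the kappa light chain constant region, went from 15.1 ± 1.63 to 36.9 ± 11.8 CPM (1.29 ± 0.23, adjusted p = 0.0108). Blnk, an adaptor of B cell receptor signaling that macrophages also express, rose by 1.46 ± 0.32 (adjusted p = 0.0198), a call lost without WT WD replicate 1 (0.0571), WT WD replicate 2 (0.0590) or tumor replicate 2 (0.0538). Jchain and Igkc stayed past the threshold in all fits that left out a library. Ms4a1, a B cell surface marker named after its values were seen, was at 0.614 ± 0.426 CPM in WT and 1.16 ± 0.682 CPM in tumor, with overlap between the groups. In N-LKO liver Igkc stood at 31.7 ± 4.78 CPM (1.07 ± 0.22 against WT, unadjusted p = 0.000727, edgeR adjusted p = 0.296).

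Blnk was also the only gene of the lymphocyte lists called under HFD, from 0.847 ± 0.353 CPM in WT to 3.01 ± 0.328 CPM in N-LKO livers (log2 fold change 1.82 ± 0.29, edgeR adjusted p = 0.0105). It was 1 of 7 B and plasma cell genes tested, beside 4.84% of all genes called under HFD. The T cell, cytotoxic, checkpoint and trafficking lists had 5, 1, 1 and 7 genes tested there and 0 called. Of 13 trafficking genes tested under WD, 1 was called higher in tumor against WT, beside 8.08% of all genes. This was Cxcl9, a chemokine that draws activated T cells through CXCR3 (1.65 ± 0.45, edgeR adjusted p = 0.0381). Its call was lost in 8 of the 9 fits that left out a library (adjusted p up to 0.0985). Ptprc, the leukocyte common antigen CD45, was the 1 gene called among 10 pan-leukocyte genes tested, beside the same 8.08% (1.02 ± 0.29, edgeR adjusted p = 0.0445). It kept its call in 1 of the 9 fits that left out a library, that without tumor replicate 3 (1.26).

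Markers of other cells also differed between the groups. In tumor against WT liver, 8.08% of all genes were called higher and 14.9% in either direction, and the counts called below stand beside these shares. The 8 recruited macrophage markers summed to 41.6 to 189 CPM in WT, 240 to 279 CPM in N-LKO liver and 278 to 635 CPM in tumor under WD, and 3 of 8 were called higher in tumor than in WT. The 7 Kupffer cell markers summed to 428 to 625, 367 to 441 and 117 to 359 CPM, with 4 of 7 called lower in tumor. Of the 6 dendritic cell markers 2 were called higher in tumor than in WT liver, of the 6 endothelial markers 2 higher and 1 lower, of the 6 stellate cell markers 2 lower and of the 6 hepatocyte markers 2 lower, with median log2 fold changes of 0.98, 0.10, -0.41 and -0.69. Spp1, which stands on the recruited macrophage and the cholangiocyte list, rose by 2.88 ± 0.63 (edgeR adjusted p = 0.0187). At 323 ± 180 CPM in tumor, Spp1 also makes up much of the recruited macrophage sum. The cholangiocyte sum follows Spp1 and was not used, while 2 of the 5 cholangiocyte markers were called higher in tumor than in WT liver. Krt19, a keratin of bile duct cells named after its values were seen, was at 0.495 ± 0.321, 0.755 ± 0.274 and 0.478 ± 0.632 CPM in WT liver, N-LKO liver and tumor. Sox9, on the same list, was highest in tumor, at 6.15 ± 0.089, 10.5 ± 1.08 and 39.2 ± 20.6 CPM in the same order. Its log2 fold change in tumor was 2.67 ± 0.33 against WT liver (edgeR adjusted p = 0.00529) and 1.90 ± 0.31 against N-LKO liver (adjusted p = 0.0355). The 5 red cell markers, which track blood in the tissue, summed to 516 to 1010, 298 to 460 and 496 to 643 CPM. Under HFD the recruited macrophage sum was 23.0 to 53.5 CPM for WT against 58.8 to 112 CPM for N-LKO. Spp1 made up much of this sum too, at 21.2 ± 9.11 and 62.2 ± 18.7 CPM. Of 6 recruited macrophage markers tested under HFD, 5 had a log2 fold change above 0 and Spp1 alone was called, beside 4.84% of all genes. Cd68 was at 5.58 ± 0.746 and 4.86 ± 1.92 CPM. The Kupffer cell sum under HFD was 113 to 169 and 53.8 to 111 CPM, and the red cell sum 122 to 278 and 241 to 597 CPM. No marker of these lists was at 0 in every library of a group. Their part in the lymphocyte results was not tested.

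The genes whose levels tracked the members most closely were sought among 15365 genes with a mean of at least 1 CPM under WD. The 5 with the highest Pearson correlation to the mean log2 CPM of the 9 members over the 9 WD libraries were Fbn1 (r = 0.990), Bclaf1 (0.989), Col5a2 (0.986), AI504432 (0.986) and Emp1 (0.985). None of the 5 stands on a lymphocyte list. Fbn1 encodes fibrillin of the extracellular matrix and was at a mean of 15.5 CPM in WT liver and 36.9 CPM in tumor. Col5a2, a fibrillar collagen chain, was at 8.13, 17.3 and 22.9 CPM in WT liver, N-LKO liver and tumor. Among the members themselves the 36 pairwise correlations ran from -0.474 (Lck and Gzma) to 0.940 (Cd79a and Cd79b), with 5 below 0 and 9 above 0.7. These values describe 9 libraries in 3 groups and carry no test.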

How the data were processed

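Gene-level estimated counts of 17 mouse libraries were deposited by the authors as an HFD table and a WD table. Per the labels, STAR and Partek were used and mm9 is named, while the published methods describe rRNA depletion, TopHat2 and cuffdiff. The coordinates in the tables had the start and end of GENCODE M21 genes on GRCm38 for 18540 of 19151 HFD and 23360 of 24233 WD genes, so GRCm38 is used here. Estimated counts, which split reads shared between genes, were rounded to whole numbers.

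Counts were scaled by TMM, filtered with filterByExpr (minimum count 10) and tested in R 4.3.3 with the quasi-likelihood F test of edgeR 4.0.16, with Benjamini-Hochberg adjustment over all genes tested and a threshold of 0.05. The 8 HFD livers were fitted alone and the 9 WD libraries together. The 14 livers were used for the difference of genotype effects between diets, over genes in both tables. Members below the filter were tested by two-sided exact permutation of CPM. Counting intervals (95%) condition on the summed counts, cover counting error only and leave out animal variation. Fits were tested on simulated data with known changes. The simulated spread was the same for every gene, and only genes past the filter were changed. The simulation therefore does not cover members below the filter or groups with a wider spread.

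Alternatives were DESeq2 1.42.0, limma 3.58.1 (voom), other scalings and filters, a replicate block, a gene length offset, fits of the compared groups alone and leaving out each library. Same-numbered replicates did not deviate together (correlations -0.124 to 0.107), so numbers were not read as pairs. The labels call the replicates biological without naming animals.

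The 9 members and the gene lists were chosen with earlier results of these data known. All members are named. From each lymphocyte and leukocyte list up to 4 genes past the threshold with the smallest p, or else up to 2 with the highest mean CPM, are named. Some genes of these lists are not reported here. The 5 genes most alike were ranked by Pearson correlation of log2 CPM (prior count 2). Gzmk, Ncr1, Ifng, Pdcd1, Tigit and Ctla4 were not analysed under HFD, nor Ifng under WD.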

Additional observations from a re-analysis of the deposited data

Results flagged for a closer look

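Cd8a in WT HFD replicate 3 was at 0.111 CPM, apart from the other 3 WT livers at 0.286 to 0.312 CPM. This is 1 count against 3 counts in each of the others. It was the single case among 18 groups of 4 livers examined. How often chance gives such a gap at counts this low was not tested.

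Ptpn22, a phosphatase that restrains T cell receptor signaling, had a genotype effect that differed between diets by 1.95 on the log2 scale (SE 0.46, WD minus HFD, edgeR adjusted p = 0.0456). Under HFD the WT livers averaged 1.06 CPM and the N-LKO livers 0.537 CPM, while under WD the averages were 2.04 and 4.06 CPM. The adjusted p was 0.0547 with no filter and 0.0608 with limma-voom, and the call was lost in most fits that left out a library.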

How the results depend on the processing

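The count of members called in tumor against WT liver was 2 in the analysis reported. It was 1 (Il7r) with a filter at a mean of 1 CPM and with limma-voom, 0 with the 2 compared groups alone, and 0 to 2 when a library was left out (0 without WT WD replicate 1). With limma-voom Cd3g had an adjusted p of 0.0555. Among members under the low-count filter of the HFD table the count was 0, and 0 to 2 when a library was left out. No member was called in the other comparisons under any alternative that was run. The replicate block changed no member's call: it gave 0, 0, 0, 2 and 0 members called in the 5 comparisons (HFD, WD, tumor against N-LKO, tumor against WT and the difference between diets), with Il7r at an adjusted p of 0.0301 and Cd3g at 0.0477. It ended the calls of Thy1 (0.0512), Havcr2 (0.0557) and Ptprc (0.0741) in tumor against WT liver and of Ptpn22 between diets (0.0977), and took the T cell list from 6 to 4 called.

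Directions turned for small differences only. In tumor against N-LKO liver, leaving out a library gave -0.11 to 0.41 for Lck, -0.26 to 0.49 for Cd79b and -0.00 to 0.50 for Cd3g on the log2 scale. In the difference between diets it gave -0.32 to 0.20 for Cd79a and -0.41 to 0.06 for Cd8a, and the length offset gave 0.18 for Cd79a. The cause was not tested. Of 832 values for single genes and lists, 682 kept direction and side of the threshold, 127 lost it, 9 gained it and 14 turned.

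Counts over all genes moved by more than 1.5 times in several settings. Under HFD 652 became 313 with the length offset. Between WD genotypes 0 became 87 with DESeq2 and 6 with the 2 groups alone. In tumor against N-LKO liver 89 became 58 with the 1 CPM filter, 1020 with DESeq2, 18 with limma-voom, 36 with the block and 29 with the 2 groups alone. In tumor against WT liver 2653 became 705 with the 2 groups alone, and in the difference between diets 257 became 972 with DESeq2, 0 with the block and 18 with the length offset. Leaving out a library gave 179 to 597 under HFD, 0 to 1 between WD genotypes, 3 to 2193 in tumor against N-LKO liver (2193 without tumor replicate 1, at most 61 otherwise), 569 to 3819 in tumor against WT liver and 22 to 330 in the difference between diets, so the background shares move with single libraries. Under HFD the markers had 0 to 18 counts per liver, and 3 against 3 libraries cannot give an exact p below 0.100.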
